A study of Mus musculus with 24 samples.

Results

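The comparison covers the response of unedited wild-type (WT) MOVAS cells to rhCTHRC1. It sets the 3 libraries of WT cells given rhCTHRC1 against the 3 libraries of WT cells given vehicle. These 6 libraries were chosen by their labels, out of 24 in the series, and all genes of the table entered. MOVAS is a mouse aortic smooth-muscle cell line, and rhCTHRC1 is recombinant human CTHRC1 protein. Of the other 18 libraries, 9 are vehicle libraries that serve here as further baselines, 3 each from Rosa26-KO cells, from Adam9-KO cells and from WT cells given ADAM9i, an ADAM9 inhibitor. The 3 treated Rosa26-KO libraries serve as a second response measured without any WT library. Rosa26-KO cells are edited at a locus commonly used as a control for editing, and Adam9-KO cells at the gene of the membrane metalloprotease ADAM9. All cells of the series are of this line, and the inhibitor group is unedited. The labels name no dose, time, inhibitor compound or clone, and do not say whether the libraries of a group came from separate cultures. The p-values then measure only the spread between these samples, which may be technical.

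CTHRC1 is a secreted glycoprotein with a short collagen triple-helix repeat. It is known from injured and remodelling arteries, and in other systems it has been linked to Wnt signalling through cell polarity pathways and to the control of collagen deposition. Cultured smooth-muscle cells can move between a contractile state, marked by actin and its partners, and a synthetic state that divides, secretes matrix and makes cytokines. The series sets this response beside the same treatment with ADAM9 inhibited or edited.

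The 6 WT libraries held 53135752 to 63541866 counts in genes. Libraries of a group differed by more than counting noise (chi-square of 9.7 to 12.2 per gene), so none was counted as a duplicate. Of the smooth-muscle markers, Acta2 and Smtn were the most abundant, while Myh11 (smooth-muscle myosin) and Cnn1 (calponin) stayed under 1 CPM in all 6 libraries, so the defining late contractile markers were near 0. The summed level of 9 smooth-muscle markers was 284.1 to 346.5 CPM in WT vehicle, 176.1 to 185.9 CPM in treated WT and 548.2 to 632.6 CPM over the other vehicle libraries. Its drop in WT was nearly all Acta2 (means of 235 and 48.6 CPM), with Tagln also lower, while the other 7 markers had higher means in treated WT. The summed level of the 20 contractile genes tested was 2672 to 2850 CPM in WT vehicle and 2867 to 2932 CPM in treated WT. The sum of 5 fibroblast markers was 70.05 to 77.24 CPM in WT vehicle, 377.6 to 402.8 CPM in treated WT and 296.9 to 347.8 CPM over the other vehicle libraries, and it was nearly all Pdgfra and Dcn, with Thy1 at 0 in WT vehicle. The sum of 6 endothelial markers was 24.38 to 27.2 CPM in WT vehicle and 11.21 to 13.1 CPM in treated WT, most of it Vwf, while the junction gene Cdh5 was at 0 in WT vehicle. The sum of 5 macrophage markers was 2.826 to 4.82 CPM and 7.272 to 9.54 CPM, with the leukocyte gene Ptprc at 0 in WT vehicle, and 3 epithelial markers were at 0 in WT vehicle. Mitochondrially encoded genes took 3.22% ± 0.00503 of counts in WT vehicle and 4.29% ± 0.0336 in treated WT (SD, n = 3). The part of any of these in the results was not tested. Cthrc1 itself had 0 counts in all 6 WT libraries, where 3 counts would be the limit that a count of 0 allows. In such bulk samples, a change in the share of cells that make an RNA and a change in RNA per cell cannot be told apart.

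Of 19891 genes tested, 12056 (60.6%) differed between treated and vehicle WT cells by edgeR's quasi-likelihood test at an adjusted p of 0.05. Here, 6352 genes (31.9%) were higher and 5704 (28.7%) lower after rhCTHRC1, and such genes are said below to have risen or fallen. A change of at least 2-fold was found for 3151 rises (15.8%) and 1702 falls (8.56%). The median change over all genes was 0.062 on the log2 scale, and it became 0.23 when libraries were scaled by their size alone, where 7525 genes were higher and 4636 lower. All changes below are therefore relative to the bulk of genes, and are log2 fold changes, with their SE where one is given.

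Which of these changes depend on the WT vehicle level was asked by setting treated WT against each of the 3 other vehicle groups in the same fit, which called 50.1% of genes against Rosa26-KO, 50.4% against ADAM9i and 44% against Adam9-KO vehicle. WT vehicle itself differed from the mean of those 3 groups in 11837 genes (59.5%). Of the 12056 genes, 4891 (40.6%, and 24.6% of genes tested) changed in the same direction against every vehicle group, 2159 higher (10.9% of genes tested) and 2732 lower (13.7%). They are called stable here. A further 2360 (19.6%, and 11.9% of genes tested) were called against none of the 3 other groups, 7.46% of genes tested as rises and 4.4% as falls. Another 1033 (8.57%, and 5.19% of genes tested) were called in the opposite direction against each of the 3. The remaining 3772 (31.3%, and 19% of genes tested) were split. The median size of change was 0.85 for stable genes against WT vehicle and 0.57 (log2) against the mean of the others. For genes called against no other group it was 1.08 and 0.14. The 4 comparisons share the treated libraries, and differences of background or inhibitor are part of 3 of them, so these shares are a description. The WT library titles carry letters that the other titles lack, and whether the WT libraries were grown or prepared apart is not given in the sources used here. Background and handling cannot be told apart. A 2-fold minimum asked of every comparison is a stricter definition, so its shares cannot be set against those above. Then 543 of 4853 (11.2%) were at least 2-fold in the same direction against all groups. Another 3136 (64.6%) were called at that size against no other group, which takes in genes called there at a smaller size.

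**Figure D1:**
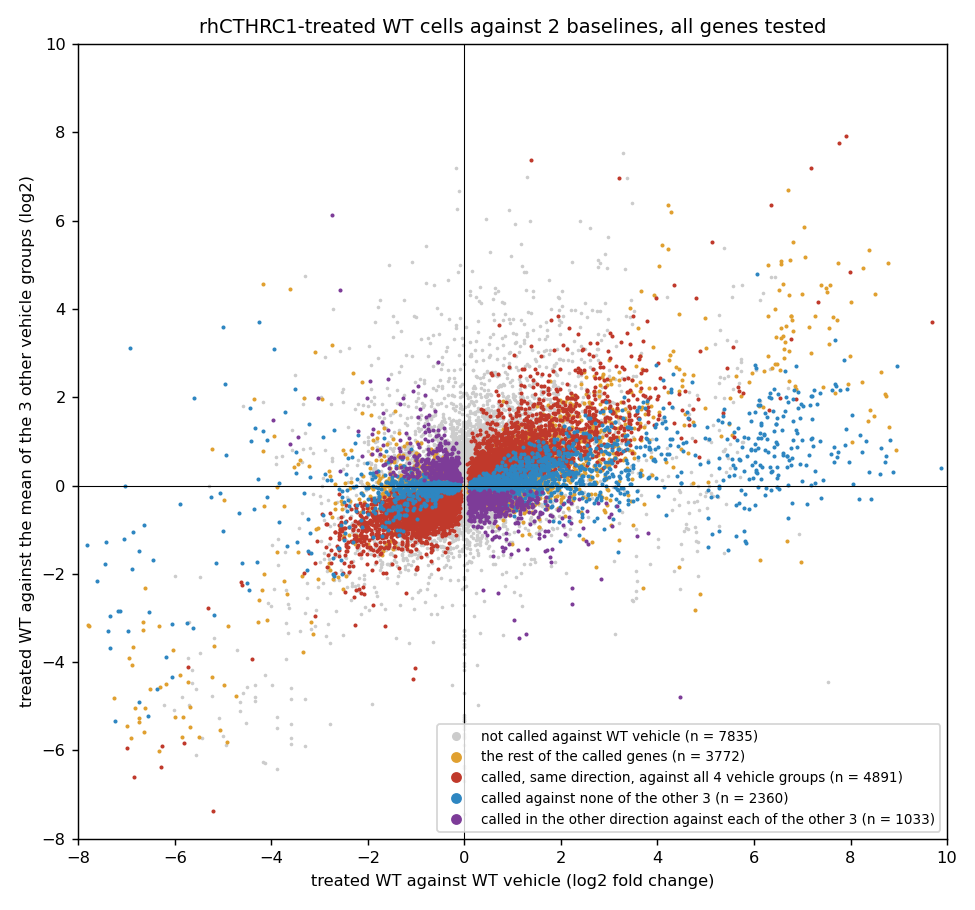
Each point is 1 of 19891 genes, with its log2 fold change in treated WT against WT vehicle on the horizontal axis and against the mean of the 3 other vehicle groups on the vertical axis. Colours give the 4 kinds of called gene, and grey the genes not called against WT vehicle. The 4891 stable genes (red) lie in the same-sign quadrants, the 2360 called against no other group (blue) spread along the horizontal axis, and 14 points fall outside the axes.

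Ribosome biogenesis had the highest share of stable falls among the 48 lists of genes described here. Of 29 genes tested on this list, 28 fell and none rose, and all 28 were stable. The median was -2.17 against WT vehicle and -1.15 (log2) against the other vehicle groups. Nop56, a core protein of the particles that guide ribosomal RNA methylation (chr2:130274430-130279313, GRCm38 as all positions here), was at 824, 833 and 823 CPM in the 3 vehicle libraries and 123, 119 and 120.0 CPM in the treated ones. It ranged from 233 to 330.5 CPM over the 9 other vehicle libraries. Treated WT was thus below every vehicle library of the series, and WT vehicle above all of them. The change was -2.78 ± 0.046 (log2 ± SE, adjusted p = 1.07e-27) against WT vehicle and -1.19 ± 0.038 against the others. Rrp12, needed for export of pre-ribosomal particles, went from 78.6, 77.96 and 72.8 to 9.84, 8.804 and 8.09 CPM, the steepest fall on the list at -3.10 ± 0.12. The abundant nucleolar proteins nucleolin (Ncl, -2.02) and nucleophosmin (Npm1, -1.13) fell as well. Polr1c, a subunit shared by RNA polymerases I and III, was the single tested member without a call, at 67.1, 66.8 and 61.5 against 67.5, 62.4 and 70.4 CPM.

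Polyamine synthesis fell at each of 4 enzymes looked at after their values were seen. Srm, spermidine synthase, fell from 280.4, 278 and 280.3 to 27.1, 28.7 and 28.2 CPM, with means of 121 ± 9.28, 125 ± 10.1 and 90.5 ± 3.65 CPM in Rosa26-KO, ADAM9i and Adam9-KO vehicle (± SD, n = 3 each). The fall of -3.32 ± 0.069 was the largest among stable genes with at least 10 CPM in either WT group. Amd1, which supplies the aminopropyl donor, went from 222, 223 and 226 to 31.9, 32.1 and 35.4 CPM. Odc1, the first enzyme of the pathway, changed by -2.19 ± 0.063 and Sms, spermine synthase, by -1.56 ± 0.070. In all 4 genes the groups did not overlap (32% of all genes were lower without overlap), and treated WT was below each other vehicle mean.

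The small nucleolar RNA host genes Snhg1, Snhg12 and Gas5 fell as well, a class that none of the lists covers. Snhg1 was at 352, 356 and 361 CPM under vehicle and 52.3, 52.3 and 50.9 CPM after rhCTHRC1, a change of -2.78 ± 0.058. Snhg12 fell by 2.84 on the log2 scale. Gas5 fell from 236 ± 7.94 to 82.3 ± 0.865 CPM (mean ± SD, n = 3). WT vehicle was high for Snhg1: the other vehicle groups had 82 ± 4.85, 88.6 ± 5.33 and 70.9 ± 6.28 CPM of Snhg1, and the change against them was -0.63 ± 0.048. The same order was seen for Myc, a transcription factor known to promote ribosome biogenesis, which went from 552, 550.5 and 534 to 103, 89.4 and 87.2 CPM while the other vehicle groups had 140.0 ± 6.69, 135 ± 10.1 and 102 ± 3.31 CPM. Myc fell by 2.55 against WT vehicle and its change was -0.42 ± 0.046 against the others, and it was not called in the same direction against all of them.

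**Figure D2:**
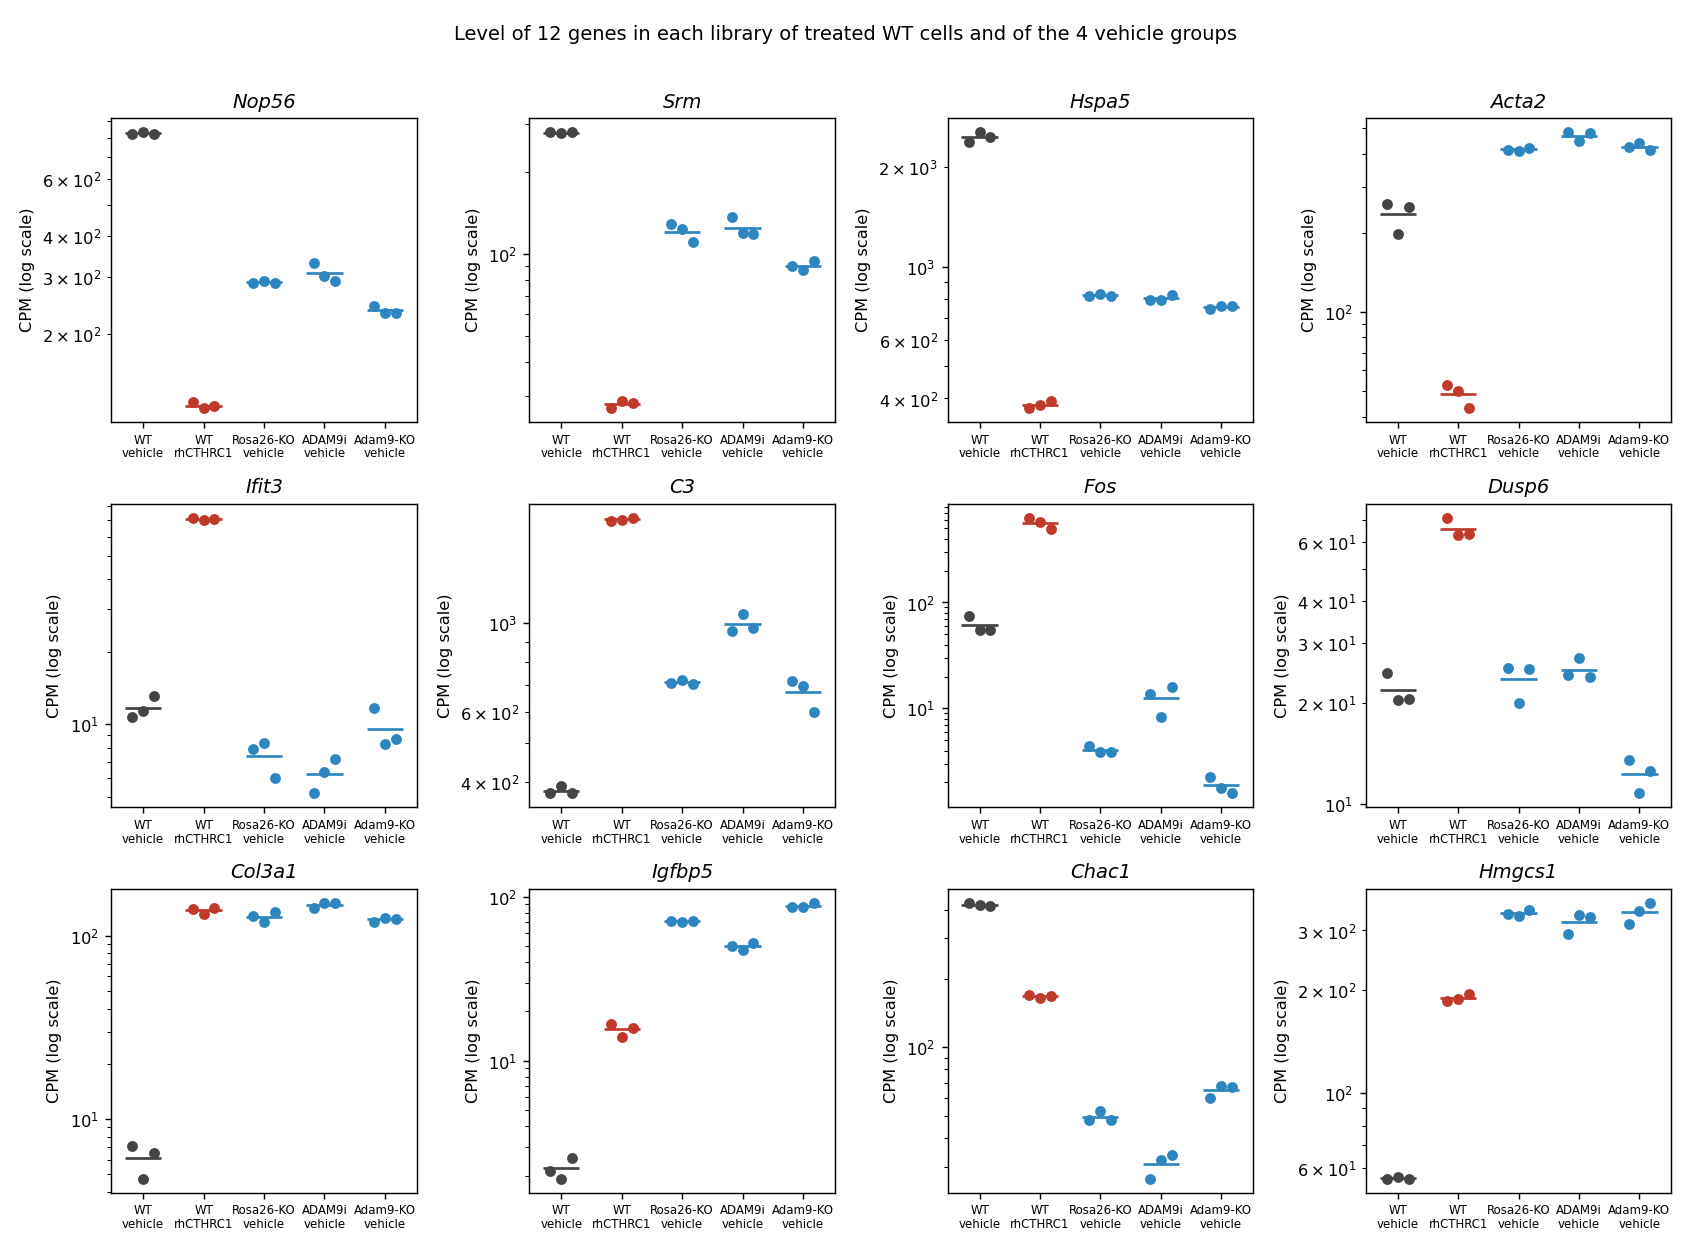
Each panel shows 1 gene, with CPM on a log axis, a point per library and a line at the mean of the 3 libraries. Groups are WT vehicle (black), treated WT (red) and vehicle of Rosa26-KO, ADAM9i and Adam9-KO cells (blue). For Nop56, Srm, Hspa5 and Acta2 treated WT is below all vehicle libraries, for Ifit3, C3, Fos and Dusp6 it is above all of them, for Col3a1 it lies among the blue points, and for Igfbp5, Chac1 and Hmgcs1 it lies between WT vehicle and the blue points.

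Some of the steepest stable falls belonged to none of these lists. Cdsn, which encodes the adhesion protein corneodesmosin of skin, went from 397, 425 and 390.4 to 45.9, 41.04 and 42.2 CPM, with 133 ± 6.797, 125 ± 7.896 and 114 ± 3.33 CPM in the other vehicle groups. Tmed5, a cargo receptor between the ER and the Golgi, went from 168, 199.6 and 184 to 23.9, 20.4 and 22.2 CPM. Other vehicle groups had 70.2 ± 19.6, 59.1 ± 7.06 and 35.1 ± 3.29 CPM of Tmed5. Against the last, Adam9-KO, its change was -0.67 ± 0.26, a borderline call (adjusted p = 0.0493 by the quasi-likelihood test). Heatr1, a nucleolar protein of ribosomal RNA transcription, fell by 2.76 and Trmt61a, the catalytic part of a transfer RNA methyltransferase, by 2.86. For each of these genes treated WT was below every vehicle mean.

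Enzymes that charge transfer RNAs fell together. Of 20 tested, 19 fell, 13 of them stable, and Qars, the glutaminyl enzyme, rose. The tryptophanyl enzyme Wars was at 483, 503 and 481 CPM under vehicle and 63.8, 64.2 and 61.96 CPM after rhCTHRC1, a change of -2.95 ± 0.044. Other vehicle cells had 98.6 ± 4.93, 97.6 ± 4.797 and 102 ± 2.88 CPM, and against them the change was -0.65 ± 0.036. Serine and one-carbon metabolism followed, with 14 of 16 genes lower and 9 of those stable. Phgdh, the first enzyme of serine synthesis, fell from 1025, 1072 and 1052 to 302, 295 and 297 CPM. The mitochondrial and cytosolic 10-formyltetrahydrofolate dehydrogenases moved in opposite directions: Aldh1l2 fell from 1386, 1371 and 1407 to 217, 218 and 211 CPM, and Aldh1l1 rose from 0.806, 0.611 and 0.173 to 13.04, 11.2 and 12.1 CPM. Both changes were stable.

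Protein folding genes of the endoplasmic reticulum (ER) fell in 22 of 25 cases, with 16 of these stable, and rose in 1. Hspa5 encodes BiP, the main ER chaperone (chr2:34771970-34777547). It was at 2381, 2546 and 2465 CPM under vehicle and 374, 382 and 394 CPM after rhCTHRC1, and 744 to 828 CPM over the 9 other vehicle libraries. The groups did not overlap, with a change of -2.68 ± 0.047 (adjusted p = 2.26e-24) against WT vehicle and -1.05 ± 0.038 against the others. Xbp1, a transcription factor of the unfolded protein response, changed by -2.21 ± 0.052, and the chaperone Hyou1 by -2.10 ± 0.044. Herpud1, which helps degrade misfolded ER proteins, fell by 1.53 on the log2 scale against WT vehicle but was 0.66 higher against the others. The ER stress element, spelled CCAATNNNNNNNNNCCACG, was searched on both strands in promoter windows from RefSeq (build GRCm38.p6, 250 bases before to 50 after the start). It was found in 9 of the 22 members with a window, and in 0.119% of all 32851 windows. Counted by window, it was in 40.9% of those of the list and 0.126% of those of tested genes. The window of Hspa5 is shown because its level changed most among the called members of this list at 5 CPM or more, with the element in capitals (chr2:34771840-34772139, plus strand).
Hspa5: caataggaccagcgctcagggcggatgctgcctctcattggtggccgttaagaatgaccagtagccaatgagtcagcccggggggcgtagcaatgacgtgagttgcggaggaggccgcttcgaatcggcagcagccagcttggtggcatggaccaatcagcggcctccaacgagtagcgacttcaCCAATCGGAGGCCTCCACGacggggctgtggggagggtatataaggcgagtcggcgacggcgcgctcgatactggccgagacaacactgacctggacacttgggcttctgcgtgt

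Mitochondrial and cytosolic chaperones were divided. Hspd1 and Hspe1, the 2 parts of the mitochondrial chaperonin, fell from 1136 ± 11.2 to 319 ± 11.2 CPM and from 141 ± 5.74 to 45.99 ± 1.83 CPM, and both falls were stable. The small heat-shock protein gene Hspb1 rose from 26.96 ± 2.52 to 85.4 ± 1.86 CPM, also stable. Over the heat-shock list 11 of 20 genes rose and 8 fell, but only 1 rise was stable against 7 of the falls. Cytosolic ribosomal protein genes fell in 32 of 42 cases, 26 of them stable, and rose in 5, all opposed. The list median was -0.29 (log2). When libraries were scaled by size alone, 23 were lower and 10 higher. Rps2 went from 2595, 2560.5 and 2488 to 1488, 1522 and 1474 CPM. Ribosomal protein genes have many near-identical pseudogenes, so the sharing of reads between copies is uncertain.

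DNA replication and mitosis genes, which usually move together, differed in their balance of rises and falls against WT vehicle. Of 40 replication genes, 27 fell and 8 rose, and 24 of the falls but none of the rises were stable. Of 38 mitosis genes, 34 rose and 3 fell, and only 2 of the rises were stable, while 10 were opposed, meaning called lower against each of the other vehicle groups. Mki67, a marker of dividing cells, was at 181, 171 and 173 CPM under vehicle and 524, 522 and 556 CPM after rhCTHRC1. The other vehicle groups had 578 ± 27.9, 624 ± 1.76 and 581 ± 6.51 CPM. The rise of 1.61 ± 0.033 thus turned into -0.15 ± 0.026 against them. Ccne2, a cyclin of the G1 to S step, fell from 36.6, 40.9 and 42.1 to 15.2, 14.2 and 14.2 CPM. Tk1, thymidine kinase, rose from 25.3, 25.3 and 20.2 to 72.9, 65.5 and 71.05 CPM and was lower than in every other vehicle group.

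The E2F site, spelled TTTNNCGC, was found in 15 of 33 replication genes with a RefSeq window and in 5.17% of all windows. Counted by window, it was in 41% of those of the list and 7.52% of those of tested genes. The cell cycle homology region, spelled TTTGAA, was found in 22 of 31 mitosis genes and in 17.9% of all windows. Counted by window, the 2 shares were 73.5% and 12.8%. Both motifs were searched on both strands. The windows of Mcm5, a helicase subunit that fell from 269, 278 and 266 to 219.7, 218 and 226 CPM, and of Ccnb2, a mitotic cyclin that rose from 26.9, 24.8 and 25.4 to 112, 117 and 111 CPM, are shown as stable members that moved in opposite directions. They lie at chr8:75109259-75109558, plus strand, and at chr9:70421505-70421804, minus strand, with the matches in capitals. In Mcm5, matches on either strand overlap and read as 1 run.
Mcm5: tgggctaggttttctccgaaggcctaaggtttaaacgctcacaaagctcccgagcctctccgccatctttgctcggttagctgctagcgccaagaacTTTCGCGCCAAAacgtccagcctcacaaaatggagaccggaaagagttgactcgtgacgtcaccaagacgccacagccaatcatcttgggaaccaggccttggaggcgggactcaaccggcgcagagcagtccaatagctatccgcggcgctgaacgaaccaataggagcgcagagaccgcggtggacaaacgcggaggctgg
Ccnb2: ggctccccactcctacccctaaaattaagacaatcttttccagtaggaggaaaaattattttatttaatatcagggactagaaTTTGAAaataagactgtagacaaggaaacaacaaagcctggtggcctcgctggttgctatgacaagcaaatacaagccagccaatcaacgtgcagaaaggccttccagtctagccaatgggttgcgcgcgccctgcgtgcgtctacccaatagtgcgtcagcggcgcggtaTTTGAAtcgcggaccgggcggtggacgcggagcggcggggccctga

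Contractile genes did not move as a group. Acta2, smooth-muscle alpha-actin (chr19:34241090-34255590), was at 257, 198 and 249.9 CPM under vehicle and 52.9, 49.96 and 43.1 CPM after rhCTHRC1. Other vehicle libraries held 411 to 482 CPM, so treated WT was the lowest of the 5 groups without overlap. The fall was -2.27 ± 0.10 (adjusted p = 6.18e-13) against WT vehicle and -3.16 ± 0.097 against the others. Tagln, an actin-binding protein, fell from 7.99, 7.74 and 8.77 to 1.38, 1.93 and 2.21 CPM, and Tpm1, Cald1 and Actn1 fell by 0.16 to 0.23 on the log2 scale. All 5 falls were stable. In the other direction, 13 of 20 genes rose, and 2 of them were stable, desmin (Des, 1.75, 1.72 and 1.23 to 9.69, 10.5 and 11.4 CPM) and Synpo2. Myl9, the regulatory light chain, rose from 2.64, 1.27 and 1.44 to 12.04, 12.8 and 14.1 CPM, but other vehicle groups had 15.4 ± 0.582, 17.4 ± 1.13 and 14.1 ± 1.49 CPM. Mylk, its kinase, rose from 3.39, 4.24 and 2.75 to 19.7, 19.1 and 18.9 CPM, with 16.6 ± 1.21, 11.8 ± 0.539 and 18.3 ± 2.07 CPM in the others. The list median was 0.89 against WT vehicle and -0.21 against the others.

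Regulators of the smooth-muscle state also differed by baseline. Klf4, a transcription factor of the synthetic state, fell from 398, 368 and 391.7 to 127, 111 and 108 CPM, yet the other vehicle groups had 76.97 ± 2.33, 54.1 ± 1.91 and 82.3 ± 5.38 CPM and treated WT was called higher against each. Myocd, the coactivator of contractile genes, was at 2.42, 1.502 and 2.88 CPM under vehicle and 0.446, 0.824 and 0.218 CPM after treatment, a fall of 2.19 on the log2 scale at a level under 3 CPM. Klf2 rose from 7.07, 4.803 and 5.46 to 36.1, 29.7 and 30.01 CPM and was stable, with 3.48 ± 1.15, 3.8 ± 0.0911 and 4.02 ± 0.345 CPM in the other vehicle groups. In the Notch list, 6 of 13 genes rose and none fell, and 5 rises were stable. Notch3, the receptor typical of arterial smooth muscle, rose from 13.7, 11.5 and 12.4 to 65.7, 63.1 and 64.6 CPM, by 2.36 ± 0.11. Foxo4 and the vasoconstrictor peptide gene Edn1 changed by 1.29 ± 0.052 and -1.33 ± 0.12, both stable.

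Interferon-response genes had the highest share of stable rises among the 48 lists. Of 36 tested, 33 rose and none fell, 32 of them stable, and the median was 1.39 against WT vehicle and 1.96 against the other vehicle groups. Oas1a, Oas2 and Usp18, also of this class, were without a call against WT vehicle, at 0.46 ± 0.34, 1.95 ± 0.85 and 0.52 ± 0.26, and higher by 2.57, 3.75 and 2.95 against the other vehicle groups. Ifit3 was at 10.7, 11.4 and 13.1 CPM under vehicle, 71.9, 70.3 and 71.2 CPM after rhCTHRC1 and 5.17 to 11.7 CPM over the 9 other vehicle libraries. Treated WT was far above all 12 vehicle libraries, by 2.60 ± 0.12 (adjusted p = 4.84e-17) and 3.22 ± 0.087 against the 2 baselines. Its near-identical neighbour Ifit3b gave 2.75 ± 0.23, and reads could be shared between them. Irf7, a transcription factor that amplifies interferon production, went from 6.196, 5.22 and 5.79 to 45.7, 42.5 and 38.4 CPM, and Zbp1, a sensor of unusual nucleic acids, from 0.823, 0.677 and 0.711 to 6.47, 5.44 and 5.93 CPM. The sensor Dhx58 rose by 2.80.

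The interferon-stimulated response element, spelled GAAANNGAAA and searched on both strands, was found in 16 of the 27 interferon-response genes with a RefSeq window and in 3.44% of all windows. Counted by window, it was in 51.6% of those of the list and 3.13% of those of tested genes. The window of Ifit3 (chr19:34583279-34583578, plus strand) is shown as that of a member with a large stable rise. Its 2 matches, in capitals, lie on the opposite strand and begin 156 and 122 bases before the start.
Ifit3: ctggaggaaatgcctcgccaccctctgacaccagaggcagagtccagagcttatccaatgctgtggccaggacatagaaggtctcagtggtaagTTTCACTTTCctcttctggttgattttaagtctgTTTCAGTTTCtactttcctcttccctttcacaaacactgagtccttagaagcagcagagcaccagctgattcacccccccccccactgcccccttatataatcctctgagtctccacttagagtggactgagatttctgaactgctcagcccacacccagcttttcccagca

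In the antigen presentation list, 14 of 19 genes rose, 13 of them stable, and 3 fell, of which 2 were opposed and 1 was split. Tap1 and Tap2, the peptide transporter, went from 7.15, 6.95 and 7.25 to 28.8, 29.6 and 28.7 CPM and from 11.4, 11.9 and 11.7 to 42.6, 48.9 and 47.2 CPM. H2-T23, a class I gene of a family with similar members, rose from 18.96, 17.2 and 17.99 to 86.6, 84.1 and 85.4 CPM. Complement and acute-phase genes rose in 19 of 25 cases, 12 of them stable. C3, the central complement component (chr17:57203970-57228136), went from 374, 391 and 376 to 1804, 1823 and 1844 CPM, with 712 ± 9.24, 996 ± 51.8 and 672 ± 62.6 CPM in the other vehicle groups, so the change was 2.26 ± 0.077 against WT vehicle and 1.22 ± 0.057 against those. Steap4, a metalloreductase, rose from 5.94, 8.04 and 6.23 to 189, 189.6 and 179.5 CPM, by 4.78 ± 0.14, of which 1.01 ± 0.084 was left against the other vehicle groups (96.7 ± 4.63, 143 ± 8.07 and 57.03 ± 7.996 CPM). Ptx3 and Saa3, also acute-phase genes, fell but were not stable.

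Among cytokines, 23 of 34 genes rose, 12 of them stable, and 4 fell, none of them stable. Cxcl1, a neutrophil chemokine, rose from 17.5, 18.4 and 18.9 to 192, 185 and 168 CPM, and was above the 38.7 ± 0.738, 50.3 ± 3.45 and 20.5 ± 1.81 CPM of the other vehicle groups. Cxcl5 and the membrane-bound chemokine Cx3cl1 rose by 2.57 and 2.18. Vcam1, a leukocyte adhesion molecule, rose from 179.8, 190.0 and 177 to 637, 685 and 634 CPM. Il6 was under 3 CPM in all 6 libraries.

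Immediate early genes, which respond within minutes to hours to growth factors and stress, rose in 13 of 25 cases, 12 of them stable, and fell in 7. Fos (chr12:85473890-85477273) was at 74.5, 55.1 and 55.5 CPM under vehicle and 633, 574 and 494 CPM after rhCTHRC1. The 9 other vehicle libraries held 1.57 to 15.8 CPM, so WT vehicle was already above them and treated WT higher still. The rise was 3.20 ± 0.23 (adjusted p = 1.05e-09) against WT vehicle and 6.96 ± 0.19 against the others. Fosb showed the same order, from 179, 126 and 126 to 445, 383 and 302 CPM, with 1.07 ± 0.157, 7.03 ± 2.104 and 1.56 ± 0.646 CPM in the other vehicle groups. Egr2, a zinc-finger factor, rose from 2.42, 3.17 and 3.095 to 31.8, 29.8 and 27.6 CPM, and here WT vehicle was close to the other vehicle groups (3.07 ± 0.454, 1.904 ± 0.793 and 3.41 ± 0.421 CPM). Its relative Egr3 rose from 1.71, 1.12 and 0.98 to 23.04, 21.3 and 17.1 CPM. Arc, best known as a gene of active neurons, rose from 3.39, 3.995 and 3.81 to 53.4, 45.7 and 46.9 CPM. Against the other vehicle groups the 3 rises were 3.46, 2.77 and 3.27 (log2). Junb went from 119, 112 and 108 to 617, 591 and 513 CPM. Not all members rose: Atf3 fell from 256, 272 and 251 to 29.1, 24.95 and 19.5 CPM, towards the 17.98 ± 2.15, 12.2 ± 2.13 and 20.3 ± 2.46 CPM of the other vehicle groups. Feedback genes of the ERK kinase pathway rose in 13 of 22 cases, 9 of them stable, and fell in 3, none stable. Dusp6, the ERK phosphatase, went from 24.4, 20.3 and 20.6 to 70.99, 62.8 and 63.4 CPM and Etv1, an ETS factor, from 1.34, 2.13 and 1.23 to 15.5, 17.4 and 12.9 CPM. Treated replicates were all above vehicle replicates for each of the immediate early and feedback genes whose values are given here, except Atf3.

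**Figure D3:**
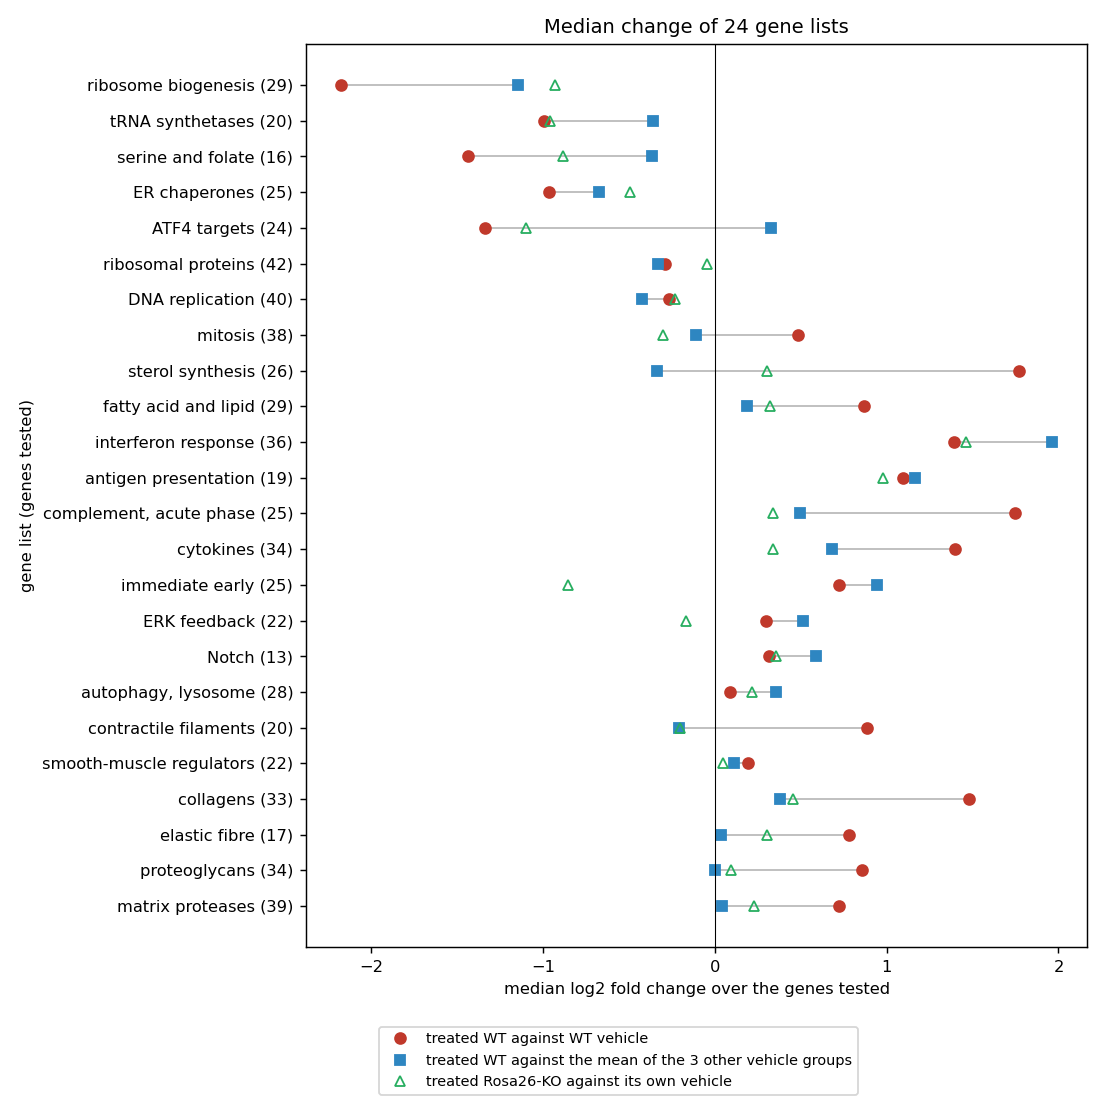
Median log2 fold change over the tested genes of 24 lists, for treated WT against WT vehicle (red circles), treated WT against the mean of the 3 other vehicle groups (blue squares) and treated Rosa26-KO against its own vehicle (green triangles). Numbers in brackets are genes tested. Ribosome biogenesis lies left of 0 by all 3 and interferon response right of 0 by all 3, while ATF4 targets, mitosis, sterol synthesis and contractile filaments change sides between the red and blue points, and immediate early and ERK feedback genes lie left of 0 by the green triangle alone.

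The single largest stable rise with at least 10 CPM was Ces1d, a carboxylesterase, from 0.235, 0.033 and 0.154 to 21.7, 24.1 and 22.1 CPM. Carboxylesterases form a cluster of near-identical genes, so its reads may include those of a neighbour. Galnt15, a glycosyltransferase that starts mucin-type sugars, rose from 0.269, 0.446 and 0.308 to 31.2, 31.5 and 33.3 CPM. Aldh3a1, an aldehyde dehydrogenase, rose from 1.95, 1.77 and 1.65 to 91.7, 95.4 and 88.99 CPM, though other vehicle groups already had 15.4 ± 0.6298, 26.9 ± 3.05 and 22.1 ± 3.38 CPM. Ptgds, prostaglandin D synthase, rose from 0.924, 1.09 and 1.19 to 38.1, 36.97 and 37.4 CPM, and here the other vehicle groups (0.6401 ± 0.158, 0.762 ± 0.1699 and 1.11 ± 0.399 CPM) were as low as WT vehicle, so the rise was 5.13 ± 0.39 against WT vehicle and 5.52 ± 0.26 against them. Spib, an ETS transcription factor best known from lymphoid cells, did the same, at 0.47, 0.891 and 0.807 and 21.1, 18.6 and 20.8 CPM. Prelp, a small leucine-rich matrix protein, rose from 5.12, 3.63 and 3.69 to 104, 103 and 105 CPM.

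Lipid handling showed stable changes in both directions. Of 29 genes, 18 rose and 6 fell, with 12 and 2 of them stable. Over all genes tested 10.9% were stable rises and 13.7% stable falls. Abca1, the cholesterol exporter, rose from 13.5, 15.6 and 15.2 to 69.6, 75.2 and 77.2 CPM, with 22.3 ± 2.41, 21.04 ± 3.97 and 13.6 ± 0.747 CPM in other vehicle groups. Angptl4, an inhibitor of lipoprotein lipase, fell from 13.8, 15.04 and 13.5 to 2.89, 2.14 and 2.55 CPM, a change of -2.48 ± 0.24, and of -2.40 ± 0.21 against the others. Scd2, a desaturase, rose from 511, 488 and 531 to 2429.8, 2443 and 2316 CPM, which was close to the 2114 ± 72.2, 2279 ± 37.2 and 2105 ± 66.2 CPM of the other vehicle groups. Lysosome and autophagy genes rose in 13 of 28 cases, 11 of them stable, and fell in 8, 1 of them stable and 4 opposed, with a list median of 0.088. Their summed level was 8783 to 9102 CPM in WT vehicle and 7420 to 7491 CPM in treated WT. Hexa and Neu1, lysosomal enzymes that trim sugars, rose by 0.54 and 0.66. Sqstm1, the autophagy receptor p62, fell from 1852, 1874 and 1741 to 627, 625 and 605 CPM but stayed above the 462 ± 10.7, 420.0 ± 11.3 and 544 ± 39.3 CPM of the others.

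Sterol synthesis had the highest share of opposed genes among the 48 lists. Of 26 genes, 25 rose and 1 fell, by a median of 1.77. Only 3 of the rises were stable, and 15 were opposed (3.02% of all genes tested were opposed rises), and the median against the other vehicle groups was -0.34. Hmgcs1, the synthase at the head of the pathway (chr13:119690379-119708260), was at 55.9, 56.4 and 55.8 CPM in WT vehicle and 186, 188 and 195 CPM in treated WT. It was at 293 to 362 CPM over the 9 other vehicle libraries, so treated WT lay between the 2 baselines and overlapped neither. The change was 1.76 ± 0.049 against the first and -0.80 ± 0.040 against the second. Fdps, farnesyl diphosphate synthase, went from 47.1, 47.7 and 44.7 to 365, 363 and 354 CPM against 361 ± 7.702, 375 ± 10.5 and 405 ± 16.1 CPM elsewhere. Insig1, which holds the sterol sensor in the ER, rose from 114, 118 and 110.1 to 683, 725 and 658 CPM and was one of the 3 stable rises. The sterol response element spelled TCACNCCAC was found on either strand in 1.24% of all windows. Counted by window, it was in 4.55% of those of the list and 1.17% of those of tested genes. Of the 18 members with a window it was found in 1, Hmgcs1. The window of Hmgcs1 (chr13:119690101-119690400, plus strand) is shown for that reason, with the match in capitals.
Hmgcs1: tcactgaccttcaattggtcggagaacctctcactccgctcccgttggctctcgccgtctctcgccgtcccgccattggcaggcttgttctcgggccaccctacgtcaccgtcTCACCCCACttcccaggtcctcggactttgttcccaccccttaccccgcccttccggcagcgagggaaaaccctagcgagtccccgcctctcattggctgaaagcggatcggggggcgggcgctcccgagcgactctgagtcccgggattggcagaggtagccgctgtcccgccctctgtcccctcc

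Targets of ATF4, the transcription factor of amino acid shortage and related stress, fell in all 24 cases tested, yet none was stable. The list median was -1.34 against WT vehicle and 0.33 against the other vehicle groups, since WT vehicle lay 1.93 above those groups. In 10 genes treated WT was higher than every other vehicle group (2.18% of all genes tested were such opposed falls). Chac1, which breaks down glutathione (chr2:119351229-119354381), was at 429, 420.2 and 414 CPM in WT vehicle, 170.2, 165 and 167 CPM in treated WT and 26.5 to 67.6 CPM in the others. Treated WT lay between the 2 without overlap, with changes of -1.33 ± 0.068 and 1.85 ± 0.052. Ddit3, which encodes CHOP, had the same order, at 202, 196 and 196, then 89.6, 89.4 and 90.5 CPM, against 45.05 ± 2.55, 34.1 ± 1.54 and 50.2 ± 2.996 CPM. Fgf21, a secreted stress hormone, dropped from 49.7, 51.3 and 45.6 to 0.848, 1.54 and 1.51 CPM, which was near the 0.916 ± 0.132, 0.377 ± 0.221 and 1.11 ± 0.351 CPM of the others. The DNA damage and stress gene Gadd45a went from 262, 263 and 266 to 54.2, 58.5 and 58.1 CPM, with 24.6 ± 1.22, 19.4 ± 2.82 and 29.4 ± 2.83 CPM in the others. The amino acid response element spelled TGATGNAA was found on either strand in 9 of the 22 members with a window and in 3.97% of all windows. Counted by window, it was in 32.1% of those of the list and 2.49% of those of tested genes. Chac1, an opposed fall, is shown (chr2:119350992-119351291, plus strand), with its match in capitals, which begins 193 bases before the start on the opposite strand.
Chac1: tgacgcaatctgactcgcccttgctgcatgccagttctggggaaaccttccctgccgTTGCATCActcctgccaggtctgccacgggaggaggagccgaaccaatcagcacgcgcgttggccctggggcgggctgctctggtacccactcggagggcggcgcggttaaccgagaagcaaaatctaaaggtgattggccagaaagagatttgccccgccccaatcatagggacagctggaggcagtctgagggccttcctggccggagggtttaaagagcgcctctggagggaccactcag

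Matrix genes were mostly higher in treated than in vehicle WT, and for many of them the other vehicle groups were as high as treated WT or higher. Of 33 collagen genes, 23 rose and 4 fell, and the rises divided into 9 stable, 7 called against no other group (7.46% of all genes tested were such rises), 3 opposed and 4 split. Col3a1, a fibrillar collagen of the vessel wall (chr1:45311538-45349706), was at 7.12, 4.72 and 6.54 CPM under vehicle and 140.4, 131 and 141 CPM after rhCTHRC1. The 9 other vehicle libraries held 119 to 151 CPM and overlapped the treated ones. The rise was 4.49 ± 0.086 against WT vehicle, and the difference was 0.061 ± 0.055 (adjusted p = 0.377) against the others. Col1a1, from 1223, 1082 and 1211 to 3258, 3219.9 and 3214 CPM, and Col1a2, from 1208, 1093 and 1224 to 3352, 3413 and 3333 CPM, stayed below the other vehicle groups, which had 5148 ± 69.5, 4079 ± 112 and 5305 ± 171 CPM of Col1a1. Col14a1, a fibril-associated collagen, was different, rising from 4.16, 4.97 and 5.15 to 22.1, 23.3 and 24 CPM with 5.94 ± 1.28, 5.22 ± 0.231 and 5.63 ± 0.614 CPM in the others.

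**Figure D4:**
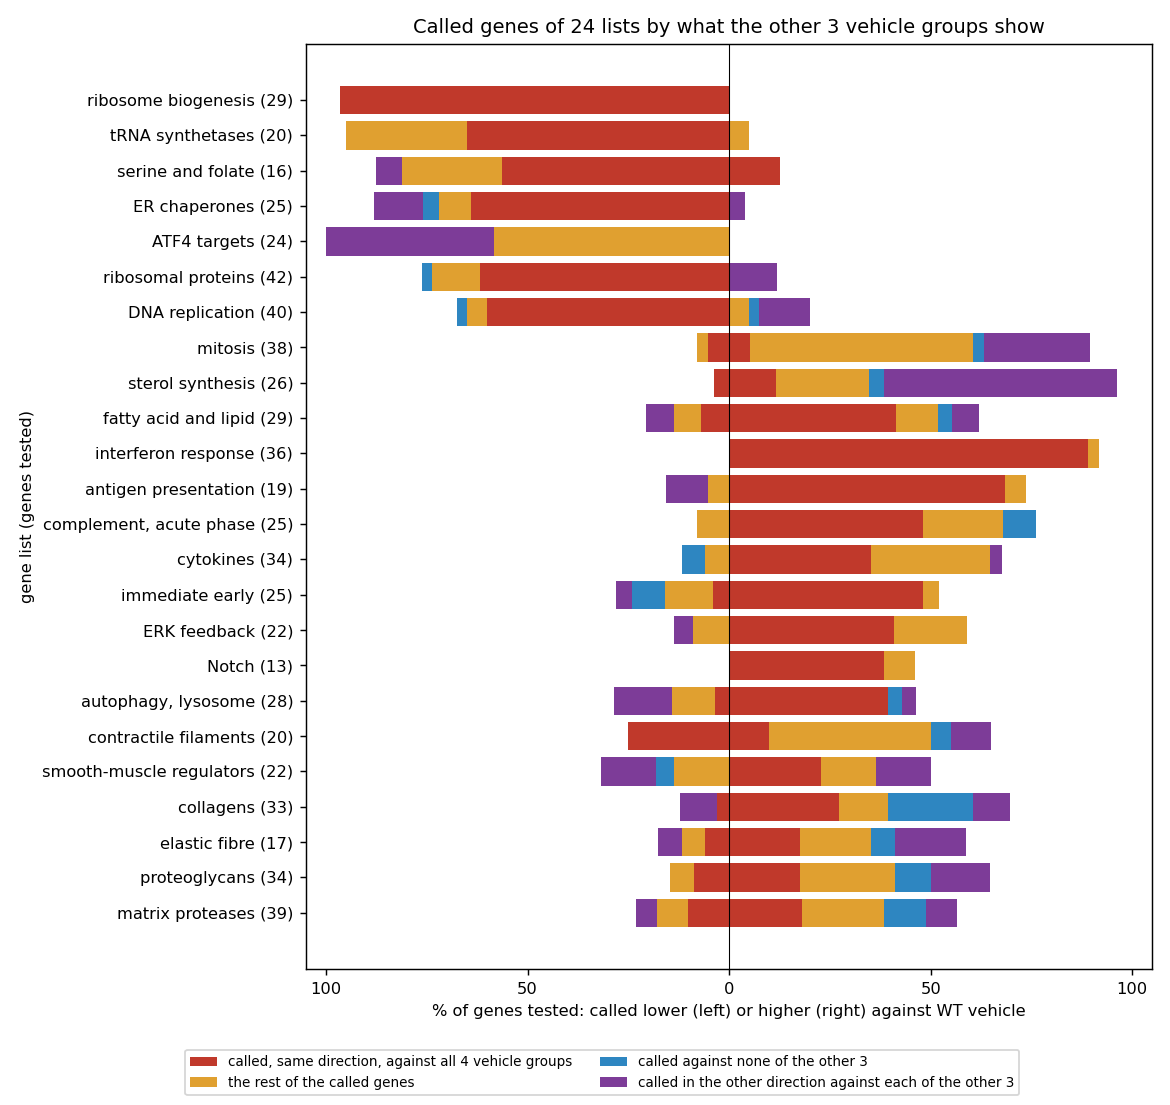
For 24 lists, the percent of tested genes called lower (left of 0) or higher (right of 0) in treated against vehicle WT, coloured by the 4 kinds of called gene. Numbers in brackets are genes tested. Red bars, the stable genes, fill 28 of 29 ribosome biogenesis genes and 32 of 36 interferon-response genes, and purple, the opposed genes, 15 of 26 sterol synthesis genes.

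In other matrix groups the same mix was seen. Of 34 proteoglycan and matricellular genes, 22 rose and 5 fell, with a median of 0.85 against WT vehicle and 0.0030 against the others. Ccdc80, a secreted matrix-binding protein chosen as a rise called against no other group, went from 18.6, 16.6 and 19.1 to 137, 137 and 139 CPM, with 139 ± 2.33, 139 ± 10.8 and 139 ± 6.104 CPM in the others. Fmod, fibromodulin, rose from 9.001, 6.37 and 4.77 to 58.03, 54.6 and 56.3 CPM but the others had 115 ± 2.41, 87.8 ± 6.96 and 117 ± 3.52 CPM. Tnxb, a tenascin, rose from 11.9, 9.94 and 9.9 to 79.99, 81.3 and 88.9 CPM and was stable. Of 17 elastic fibre genes 10 rose and 3 fell, and Loxl4, a crosslinking oxidase, fell from 389.6, 363 and 384 to 96.8, 90.4 and 98.7 CPM, to the level of the others (97.9 ± 3.71, 81.4 ± 2.36 and 101 ± 3.33 CPM).

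Matrix proteases and their inhibitors held stable changes in both directions, as did all genes tested (10.9% stable rises and 13.7% stable falls). Of 39 genes 22 rose, 7 of them stable, and 9 fell, 4 of them stable. Timp3, a matrix-bound metalloprotease inhibitor, fell from 980.0, 944 and 997 to 135, 135 and 132 CPM, with 299 ± 6.796, 247 ± 26.6 and 203 ± 15.1 CPM in the others. Mmp2, gelatinase A, rose from 235, 230.0 and 234 to 485, 456 and 492 CPM, with 292 ± 4.99, 291 ± 7.24 and 302 ± 8.698 CPM in the others. Adamts7 rose from 4.16, 5.81 and 4.75 to 40.6, 36.7 and 40.3 CPM and Adamts1, a proteoglycan-cleaving protease, fell from 124, 127 and 129 to 27.7, 29.3 and 23.6 CPM, both stable. Of the integrins, 10 of 19 rose and 4 fell, beside 31.9% higher and 28.7% lower over all genes tested. Itgb3 and Itga10, a beta and an alpha chain, rose by 2.995 and 2.47, both stable.

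Growth factor and signalling lists moved in both directions, as did all genes tested (31.9% higher and 28.7% lower). In the PDGF, FGF and VEGF list, 14 of 25 genes rose and 5 fell. Angpt2, a modulator of vessel stability, rose from 2.23, 1.88 and 3.21 to 26.8, 26.3 and 24.7 CPM and was stable, while the receptor Pdgfra rose from 50.6, 44.5 and 50.2 to 294, 280.4 and 303 CPM, near the 252 ± 12.98, 251 ± 12.9 and 295 ± 4.67 CPM of other vehicle cells. Of 34 Wnt genes 17 rose and 9 fell, 3 and 1 of them stable, beside 10.9% stable rises and 13.7% stable falls over all genes tested. Wnt4, a ligand, rose from 4.13, 4.04 and 4.998 to 14.1, 14.6 and 14.4 CPM and Ror1, a receptor-like kinase, from 4.79, 4.03 and 5.998 to 9.58, 10.2 and 11.4 CPM, neither of them stable. Sfrp2, a secreted Wnt modulator, rose from 18.9, 21.4 and 22.9 to 68.5, 65.6 and 65.8 CPM but was far below the 203 ± 1.89, 144 ± 9.58 and 219 ± 3.93 CPM of the others. Igfbp5, a binding protein of insulin-like growth factors, was opposed as well, at 2.15, 1.92 and 2.58 CPM, then 16.8, 14.1 and 15.97 CPM, against 47.3 to 91.7 CPM over the other vehicle libraries.

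The TGF-beta and BMP list had 14 of 29 genes higher and 12 lower, with 4 and 7 stable, and the YAP target list 5 of 20 higher and 12 lower, with 4 and 7 stable. Over all genes tested 31.9% were higher and 28.7% lower, with 10.9% and 13.7% stable. Tgfbi, a TGF-beta-induced matrix protein, rose by 3.63. Ankrd1, a YAP target of muscle, fell from 266, 274 and 261 to 87.2, 86.2 and 78.2 CPM, and Ccn1, another, rose from 327, 341 and 294 to 767, 766 and 639 CPM, both stable. Guidance genes (semaphorins, ephrins and slits) rose in 23 of 41 cases and fell in 5, and 11 rises were stable, of which that of Sema3b, a secreted semaphorin, was the largest at 3.02 ± 0.19. Of 18 clock genes 5 rose and 11 fell. Cry1, a clock repressor, fell from 64.8, 72.4 and 67.5 to 13.1, 13.5 and 10.7 CPM and Dbp, a clock output factor, rose from 9.96, 6.85 and 8.36 to 38.9, 42.8 and 40.1 CPM, both stable.

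For genes called against no other vehicle group, the median size of the difference between WT vehicle and the mean of the other vehicle groups was 0.91 (log2), a description without a test over these genes. Ilk, the integrin-linked kinase, was at 22.8, 23.1 and 24.5 CPM in WT vehicle and 101, 94.98 and 109 CPM in treated WT, with 109 ± 6.93, 104 ± 3.29 and 105 ± 3.63 CPM in the others. The lipid receptor S1pr1 went from 3.07, 2.59 and 1.36 to 12.1, 9.82 and 12.1 CPM, with 12.1 ± 0.283, 12.2 ± 0.293 and 13.01 ± 0.512 CPM in the others. In the other direction, Dgkh, a diacylglycerol kinase, fell from 122, 131 and 133 to 30.9, 31.8 and 30.8 CPM, with 33.9 ± 1.68, 32.02 ± 3.22 and 31.1 ± 1.69 CPM in the others. Stc2, a secreted glycoprotein of the stress response, fell from 64.2, 66.5 and 64.6 to 14.3, 11.6 and 13.2 CPM, with 14.2 ± 0.976, 12.9 ± 1.101 and 13.1 ± 1.02 CPM in the others, and Ciart, a clock repressor, from 58.5, 60.7 and 56.7 to 8.05, 7.96 and 8.49 CPM. The carbonic anhydrase gene Car6 was at 21.2, 22.1 and 17.5 CPM in WT vehicle and under 1 CPM in treated WT and in the other vehicle means. For these genes treated WT was called different from WT vehicle alone.

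By their definition, opposed genes sat between the 2 baselines. Lxn, an inhibitor of carboxypeptidases, rose from 7.19, 6.21 and 8.32 to 40.6, 42.6 and 43.98 CPM, with 117 ± 3.195, 105 ± 4.27 and 97.03 ± 4.47 CPM in the others. Sod3, the extracellular superoxide dismutase, rose from 11.6, 9.19 and 10.6 to 84.9, 73.7 and 80.03 CPM, with 109 ± 3.14, 103 ± 2.504 and 104 ± 6.204 CPM in the others. Vwf, von Willebrand factor, fell from 18.5, 21.3 and 19.9 to 9.29, 9.51 and 9.903 CPM, with 1.499 ± 0.519, 2.94 ± 0.717 and 2.32 ± 0.276 CPM in the others. Cth, which makes cysteine, fell from 142, 151 and 142 to 34.8, 33.4 and 32.6 CPM, with 23.5 ± 0.848, 18.1 ± 1.62 and 22.7 ± 1.85 CPM in the others.

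Metabolic and stress lists held both rises and falls, as did all genes tested (31.9% higher and 28.7% lower). Of 29 glycolysis and hypoxia genes 9 rose and 10 fell, with 1 and 7 stable. Pfkm, a phosphofructokinase, rose from 37.3, 40.8 and 37.4 to 149, 146 and 155 CPM and was stable, while Hk2, a hexokinase, fell from 133, 142 and 134 to 47.7, 45.96 and 38.7 CPM, near the 50.4 ± 4.42, 56.5 ± 9.05 and 40.98 ± 2.61 CPM of the others. Of 32 nuclear-encoded respiratory chain genes 10 rose and 13 fell, and 15 rose and 9 fell when libraries were scaled by size alone. Uqcrq, a subunit of complex III, fell from 89.8, 89.98 and 77.5 to 25.7, 23.4 and 22.97 CPM and was stable. Of 13 genes encoded in the mitochondrion 9 rose, 2 of them stable, and none fell.

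Of 30 NRF2 target genes 15 rose and 9 fell, with 5 and 7 stable. The glutathione transferases Gsta4 and Gstm1, of a family with similar members, rose from 1.28, 1.29 and 1.73 to 18.3, 17.3 and 17.1 CPM and from 67.9, 61.8 and 60.7 to 293, 295 and 297 CPM, both stable. Of 29 p53 target genes 10 rose and 11 fell, with 3 of each stable, beside 31.9% higher and 28.7% lower over all genes tested. The exonuclease gene Aen fell from 69.4, 70.9 and 62.3 to 11.5, 13.03 and 12.5 CPM and the stress protein gene Sesn1 rose from 13.95, 14.4 and 14.3 to 59.2, 64.97 and 63.6 CPM. Of 27 histone genes 3 rose and 2 fell, at levels that were mostly low.

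Ligands and receptors of the EGFR family made a short list. Of 11 genes 5 rose and 3 fell, with 4 and 2 stable. Over all genes, 40.6% of those called were stable, and the counts of this list carry no test. Egfr itself rose from 20.8, 20.9 and 23.1 to 48.2, 47.5 and 49.2 CPM, with 33.4 ± 1.001, 29.6 ± 1.48 and 38.4 ± 1.22 CPM in the others. The ligand gene Nrg1, neuregulin, fell from 69.7, 68.9 and 70.8 to 17.7, 16.5 and 17.96 CPM and Btc, betacellulin, rose from 0.605, 1.35 and 1.27 to 5.57, 5.16 and 5.29 CPM. Of 16 genes of the IGF system 8 rose and 5 fell, beside 31.9% higher and 28.7% lower over all genes tested. Of 15 prostaglandin genes 8 rose and 2 fell, with 4 and 1 stable, and Ptgis, prostacyclin synthase, rose from 147, 135 and 136 to 268, 266 and 271 CPM.

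Of 23 genes of contraction signalling 11 rose and 6 fell, with 2 of each stable. Over all genes tested 10.9% were stable rises and 13.7% stable falls. The adrenergic receptor Adra1b rose from 4.67, 4.34 and 5.36 to 11.3, 9.33 and 10.2 CPM, below or near the 15.3 ± 1.82, 10.9 ± 1.42 and 20.3 ± 1.73 CPM of the others. Of 15 genes of bone and cartilage 5 rose and 5 fell, beside 31.9% higher and 28.7% lower over all genes tested. Spp1, osteopontin, rose from 185, 155 and 177 to 492, 462 and 514 CPM and was stable, with 202 ± 4.01, 248 ± 2.998 and 203 ± 8.03 CPM in the others. Mgp, an inhibitor of calcification, rose from 16.4, 15.2 and 14.7 to 104, 109.9 and 97.9 CPM, and the others had 105 ± 0.577, 101 ± 14.6 and 63.4 ± 8.11 CPM.

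Adam9, the protease that the series edits or inhibits, was at 255, 211 and 281 CPM under vehicle and 267, 333 and 273 CPM after rhCTHRC1. The groups overlapped, and the change was 0.22 ± 0.091 (adjusted p = 0.0418), a call lost under several alternatives, with an adjusted p of 0.162 when 12 libraries were fitted. Over the whole gene, Adam9 was at 236 ± 6.36, 164 ± 6.48 and 139 ± 10.1 CPM in Rosa26-KO, ADAM9i and Adam9-KO vehicle cells. In the ADAM list 8 of 10 genes rose, Adam9 among them, and none fell. Adam17, a sheddase of growth factors and cytokines, rose from 90.4, 93.3 and 96.6 to 130.3, 124 and 120.2 CPM, a small, stable rise without overlap.

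Kinds of transcript differed in their balance. Of 14470 protein-coding genes 37.2% rose and 34.7% fell. Of 800 long intergenic RNAs 30% rose and 9.5% fell, and of 1001 antisense RNAs 26.5% rose and 4.3% fell. Pseudogenes went the other way, with 7.84% of 2080 higher and 22.3% lower. The median change was 0.77 for long intergenic RNAs and 0.63 for antisense RNAs, and 0.42 and 0.27 against the other vehicle groups. Whether counting used strand is not given in the sources used here, so antisense RNAs and the genes they overlap may share reads, and pseudogenes may take reads of their parent genes.

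The Rosa26-KO response was measured in libraries of its own, against its own vehicle, and 8415 genes (42.3%) were called, 20.1% higher and 22.2% lower. Stable genes were defined again without the Rosa26-KO vehicle, a definition chosen after seeing the data. Of 2219 genes that rose against WT, ADAM9i and Adam9-KO vehicle, 81.6% rose in Rosa26-KO cells too and 1.31% fell. Of 2781 that fell, 84.9% fell there and 0.647% rose. Over all genes that rose in WT, 47.2% rose in Rosa26-KO cells and 8.58% fell, and over all that fell, 57.9% fell and 6.03% rose. Across all 19891 genes the 2 responses had a Pearson r of 0.39 and a Spearman rho of 0.538. Genes are not independent replicates, so no p is given.

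The size of the response, tested as a difference, was unlike in 8720 genes (43.8%), 4395 with a more positive and 4325 with a more negative change in WT. For ribosome biogenesis the direction was shared, with all 29 genes lower in Rosa26-KO cells but a median of -0.93 there. Nop56 changed by -1.003 ± 0.044 in Rosa26-KO cells, and the difference between the responses was -1.77 ± 0.062 (adjusted p = 1.28e-19). Interferon-response genes rose in 35 of 36 cases in Rosa26-KO cells, with a median of 1.46, and Ifit3 changed by 2.21 ± 0.12, a difference of 0.40 ± 0.17 (adjusted p = 0.0594). Acta2 fell in Rosa26-KO cells by more than in WT, at -3.35 ± 0.11 (adjusted p of the difference = 3.87e-06), from a higher vehicle level, 415 ± 5.72 CPM to 40.6 ± 1.78 CPM. Sterol genes rose in 19 of 26 cases there, with a median of 0.30, and ATF4 targets fell in 23 of 24.

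Of 25 immediate early genes, 13 rose and 7 fell in WT, and none rose and 19 fell in Rosa26-KO cells. Fos went from 4.04 ± 0.299 to 1.06 ± 0.353 CPM in Rosa26-KO cells, a change of -1.93 ± 0.42, and differed from its WT response by 5.12 ± 0.46 (adjusted p = 4.97e-08). Egr3 changed by -1.69 ± 0.25 in Rosa26-KO cells and 4.003 ± 0.26 in WT. Junb changed by -1.25 ± 0.055 and 2.34 ± 0.055. Of 38 mitosis genes none rose and 31 fell in Rosa26-KO cells, where Mki67 changed by -0.32 ± 0.032. The 34 rises of this list in WT depended largely on the WT vehicle level, since 2 were stable and treated WT was lower in 18, 30 and 13 of the 38 genes against Rosa26-KO, ADAM9i and Adam9-KO vehicle, and higher in 11, 3 and 9. Over all genes, 889 (4.47% of those tested) were called in opposite directions in the 2 responses with a called difference. Of these, 480 were opposed, 292 split and 76 called against no other group, and 41 were stable, so for most of them the WT direction depended on the vehicle group used. The Rosa26-KO vehicle libraries enter both these classes and the Rosa26-KO response, so the counts are a description. Fosb, Dusp1 and Dusp6 rose in WT and were without a call in Rosa26-KO cells, at 0.98 ± 0.53, 0.25 ± 0.11 and -0.25 ± 0.11. The difference between the responses was 1.85 ± 0.16 (adjusted p = 2.22e-10) for Dusp6 and 1.13 ± 0.16 (adjusted p = 6.83e-06) for Dusp1, and for Fosb it was not called (0.41 ± 0.61, adjusted p = 0.654).

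**Figure D5:**
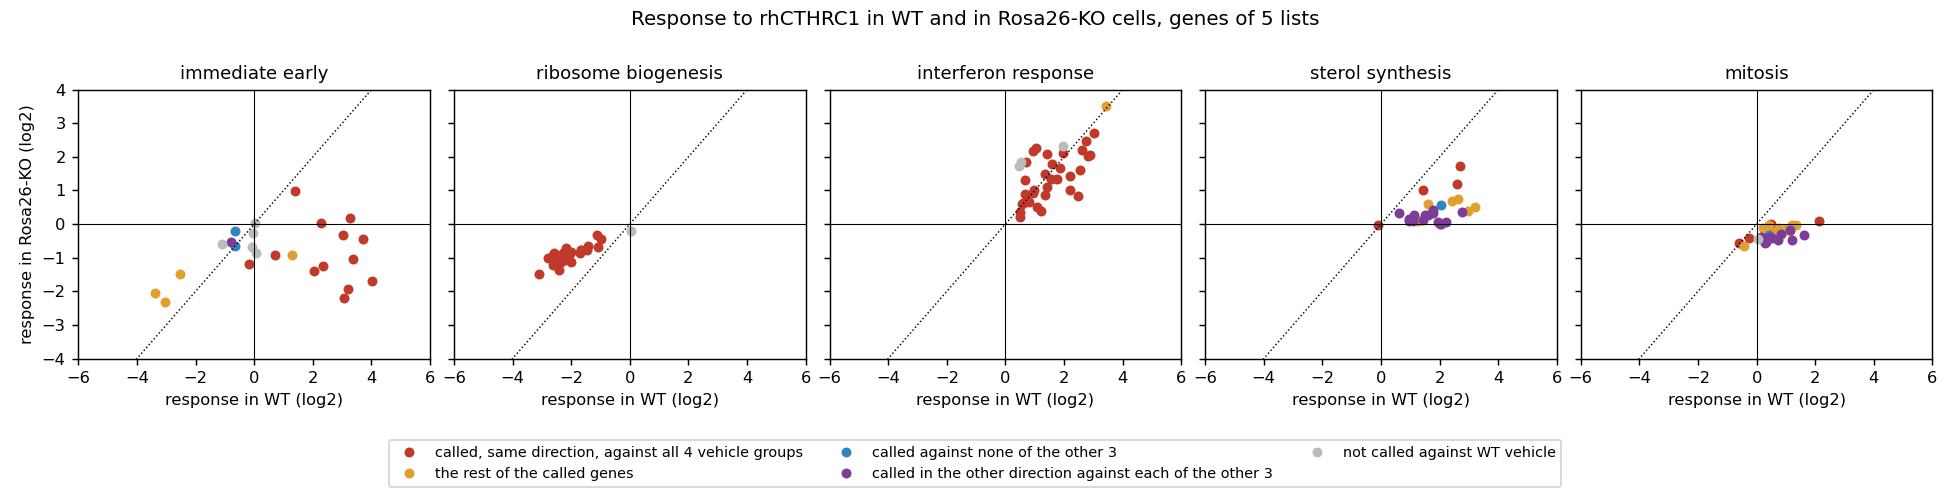
Each point is a gene of 1 of 5 lists, with its log2 response to rhCTHRC1 in WT on the horizontal axis and in Rosa26-KO cells on the vertical axis. Colours give the kind of called gene in WT, and the dotted line marks equal responses. Ribosome biogenesis genes fall in both, interferon-response genes rise in both, and most immediate early genes that rise in WT lie at or below 0 in Rosa26-KO cells.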

How the data were processed

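RNA of 24 libraries in 8 groups of 3 was sequenced. Per the labels' protocols, a stranded kit for total RNA was used, with paired reads of 150 bases. Per the submitters' processing notes, HISAT2, StringTie, DESeq2 and the build GRCm38 were used, with no versions or roles. The authors deposited a single sheet of 33034 genes with raw counts and FPKM, fragments scaled to gene length and library size, for each library. Per the file headers, columns bear the library titles, which gave the groups. No column was left unused. Library totals in WT ran from 53135752 to 63541866 counts, which limits the precision of values near 0. Intervals and floors of counts cover counting error only.

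From the counts, 1 group-means model over all 24 libraries was fitted with edgeR 4.0.16 (R 4.3.3), using TMM scaling, filterByExpr, the robust quasi-likelihood test and Benjamini-Hochberg adjustment over 19891 genes, two-sided, threshold 0.05. CPM are counts scaled to the TMM library size. The SE is the absolute log2 change divided by the square root of F. The median log2 change and the counts per list carry no test. On simulated counts the WT comparison recovered 99% of genes changed by 1 and 100% of genes changed by 2 on the log2 scale, with 8 false calls among 18305 unchanged genes, and the difference from the Rosa26-KO response 95% and 100%, with 14 false calls. The simulation changed 100 well-expressed genes at each size out of 18505, equally up and down. Every gene had the same spread, and all other groups were alike. In the data 60.6% of genes were called, so these are not error rates of the results. DESeq2 1.42.0 and limma 3.58.1 on log2(FPKM + 1) served as alternatives. Other tools were Python 3.11.15, pandas 2.3.3 and matplotlib 3.10.9.

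Members, 48 lists (1217 members, 1207 with an entry, 1143 tested) and tests were chosen with earlier results of these data known. Stable genes are those called in the same direction against WT vehicle and each of 3 other vehicle groups. Genes were named by rule: 10 chosen genes, the 12 largest stable rises and falls, the 8 largest of those called against no other group and of opposed genes (at least 10 CPM, no overlap), and up to 4 called members of each list of largest absolute change (at least 5 CPM). Named after their values were seen were Actn1, C3, Cald1, Chac1, Col1a1, Col1a2, Ddit3, Egr1, Fos, Fosb, Gas5, Hexa, Hmgcs1, Ier2, Ifit3, Il6, Insig1, Jun, Junb, Mcm5, Myc, Ncl, Neu1, Npm1, Nr4a1, Oas1a, Oas2, Odc1, Phgdh, Polr1c, Ptx3, Qars, Saa3, Smtn, Sms, Tpm1 and Usp18. Some genes that the rule names are not reported here, though the counts per list include them. Promoter windows came from RefSeq (GRCm38.p6) and were matched by symbol.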

Additional observations from a re-analysis of the deposited data

Results flagged for a closer look

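The difference between the responses of WT and Rosa26-KO cells was tested for every gene and called in 8720. The genes given here are those named in the text for which both responses were called, in opposite directions, together with a called difference.

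Vwf fell in WT and rose in Rosa26-KO cells, a difference of -3.13 on the log2 scale, and Dgkh did the same with -2.34. All others rose in WT and fell in Rosa26-KO cells. Among immediate early genes the difference was 5.69 for Egr3, 5.24 for Egr1, 5.12 for Fos, 4.40 for Egr2, 4.14 for Arc, 3.59 for Junb, 3.43 for Ier2, 3.34 for Nr4a1 and 1.63 for Jun. Egr1, a zinc-finger factor, was at 148, 141 and 135 CPM in WT vehicle and 1220.0, 1185 and 1108 CPM in treated WT, and went from 124 ± 6.03 to 27.04 ± 1.46 CPM in Rosa26-KO cells. Nr4a1, an orphan nuclear receptor, went from 26.6, 27.3 and 20.8 to 231, 215 and 159 CPM in WT.

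Secreted and signalling genes differed by 4.74 for Igfbp5, 3.58 for Cxcl1, 3.18 for Lxn, 2.39 for Ccn1, 2.14 for Sfrp2, 1.96 for Wnt4, 1.81 for Adra1b, 1.66 for Pde3a, 1.45 for Ror1 and 0.98 for Adam19. The dividing-cell genes Mki67 and Tk1 differed by 1.93 and 1.77. Smaller differences were found for Cox7a2 (0.73), Smtn (0.50) and mt-Nd1 (0.50). For Igfbp5, Lxn, Sfrp2, Tk1, Mki67, mt-Nd1 and Vwf treated WT lay between WT vehicle and the other vehicle groups. WT vehicle differed from the other vehicle groups in 59.5% of genes, and the part of that starting level in these differences was not tested.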

How the results depend on the processing

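With a 2-fold minimum in each comparison, 4853 genes were called against WT vehicle, 3151 higher and 1702 lower, of which 543 were stable, 30 opposed and 1144 split. Leaving out each WT library in turn gave 11490 to 11541 called genes, 5953 to 6015 of them higher and 5508 to 5566 lower, 4576 to 4837 stable, 2064 to 2514 called against no other group, 898 to 1014 opposed and 3503 to 3610 split, and 8367 to 8442 genes with a called difference from the Rosa26-KO response. The number of calls was 12048 with RLE scaling, 12161 with library size alone, 12140 with DESeq2 (7 genes without an adjusted p), 11679 without the filter on low counts, 11822 with the 6 WT libraries alone, 11852 with 12 libraries and 10371 of 13209 genes with limma on log2(FPKM + 1). No gene named by rule changed direction under any of these where either result was called. Changes of sign between results without a call were not recorded. The genes named after their values were seen were not followed under the alternatives. Among the genes named by rule, calls were lost for Adam9, Cnn1, Egfl7, Rpl17 and Rpl7a under at least 1 alternative. These were 25 of 3129 gene results, and the cause was not tested. Library size alone moved the median of all genes to 0.23 and the share of rises among calls from 52.7% to 61.9%. Genes near 0 are limited by depth, and a count of 0 allows up to 3 counts.

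Same-numbered WT libraries did not deviate together (correlations of -0.027 to 0.019 over 13502 genes, and -0.04 to 0.034 for other pairs). The labels do not say what the numbers mark, and such correlations cannot show whether the samples were paired. With the replicate number as a block, 11780 genes were called, 6156 higher and 5624 lower, and 8623 differed from the Rosa26-KO response. With a block shared over all backgrounds, 4896 genes were stable, 2305 called against no other group, 1044 opposed and 3779 split. Under the block Adam9 lost its call (adjusted p = 0.12).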
